A study of Homo sapiens with 6 samples.

Results

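A set of 10 genes of the ERK mitogen-activated protein kinase (MAPK) response were followed in MDA-MB-231 cells after knockdown of TAZ. They were EGR1, EGR3, IER2, IER3, IER5, DUSP1, DUSP4, DUSP5, DUSP6 and SPRY2, chosen by gene symbol, and all 10 were found among the 46427 genes of the deposited table. EGR1 and IER3 were chosen because their mRNA was higher after TAZ-siRNA in these same libraries, so their values are given as a description with no test. The other 8 were chosen for what they are known to do, as genes that ERK induces early or that act as its feedback inhibitors. MDA-MB-231 is a metastatic human breast cancer line, labelled wild type here. The study asked if TAZ, the transcriptional coactivator encoded by WWTR1, acts on cell migration by way of epithelial-to-mesenchymal transition or the actin cytoskeleton. RNA sequencing after knockdown of TAZ was a part of it, beside migration assays, immunoblots and microscopy. Control-siRNA (n = 3) or siGENOME human WWTR1 siRNA (TAZ-siRNA, n = 3) was introduced with DharmaFECT4. Each library came from its own cell preparation, all grown in low-glucose DMEM with fetal bovine serum, and the cells were detached with trypsin/EDTA and frozen before RNA extraction.

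The ERK cascade passes signals from growth factor receptors through RAS, RAF and MEK to ERK. Active ERK phosphorylates ternary complex factors that sit with SRF on immediate early genes, whose transcription then starts without new protein synthesis. Among the products are transcription factors such as EGR1 and, as feedback, phosphatases and adaptor proteins that switch the cascade off again. The mRNAs are short-lived, and several of them are also known to respond to stress and to p38, JNK or cAMP signals.

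The promoter sequence of 3 of the genes is shown because these genes were higher (EGR1 and IER2) or lower (DUSP1) after TAZ-siRNA. Each is the 250 bases upstream of the start site in RefSeq (GRCh38.p14), written 5′ to 3′ on the strand of the gene. For EGR1 (chr5:138465229-138465478, plus strand) capitals mark the 2 CArG boxes, the element that SRF binds. For DUSP1 (chr5:172771196-172771445, minus strand) and IER2 (chr19:13150161-13150410, plus strand) capitals mark CGTCA on either strand, the core of the cAMP response element.

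EGR1 promoter: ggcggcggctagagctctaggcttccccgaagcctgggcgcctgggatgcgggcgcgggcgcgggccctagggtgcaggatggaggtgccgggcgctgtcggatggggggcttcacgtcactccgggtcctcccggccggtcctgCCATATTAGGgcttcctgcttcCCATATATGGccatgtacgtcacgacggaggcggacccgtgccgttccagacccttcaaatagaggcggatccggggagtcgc
DUSP1 promoter: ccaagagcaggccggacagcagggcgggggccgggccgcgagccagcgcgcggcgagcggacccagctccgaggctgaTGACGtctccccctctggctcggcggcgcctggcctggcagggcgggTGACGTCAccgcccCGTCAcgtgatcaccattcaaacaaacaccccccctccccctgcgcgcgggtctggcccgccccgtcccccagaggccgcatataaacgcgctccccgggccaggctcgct
IER2 promoter: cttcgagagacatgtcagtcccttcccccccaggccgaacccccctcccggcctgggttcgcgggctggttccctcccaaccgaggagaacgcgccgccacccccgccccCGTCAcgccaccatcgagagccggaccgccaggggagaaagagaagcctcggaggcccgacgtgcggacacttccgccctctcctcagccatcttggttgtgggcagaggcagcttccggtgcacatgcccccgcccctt

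Such sequences were held for EGR1, IER2, IER5, DUSP1, DUSP6 and SPRY2, that is for 6 of the 10 genes, and each motif was searched on both strands. The CArG boxes of EGR1 began 105 and 83 bases upstream of the start site, and 1.14% of 27305 promoters of the same length held a match. CGTCA was found in 4 of the 6 promoters (EGR1, IER2, DUSP1 and SPRY2) and in 21.7% of all promoters. DUSP1 held 4 matches, of which 2 overlap within the full palindrome TGACGTCA, which was found in no other of the 6 and in 1.77% of all promoters. CCGGAA, the core that ETS factors bind, was found upstream of IER2, IER5 and SPRY2 and in 14.8% of all promoters. GCGNGGGCG, the site of the EGR factors themselves, was found upstream of EGR1 and SPRY2 and in 8.25%. GGAATG, the site of the TEAD factors through which TAZ acts, and TGANTCA, the AP-1 site, were found in none of the 6, and 11.9% and 6.6% of all promoters held them. An NF-kB site was found in none of the 6 and in 5.05%, and TATAAA in DUSP1 alone and in 11.1%. The DUSP6 window was 57.2% G and C and the other windows 68.4 to 74.4%, beside a median of 58% over all promoters. The shares of all promoters were not matched for this content. A match describes the letters of this window only.

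Before the 10 genes, the libraries were checked against their labels. WWTR1 mRNA was 190 to 192 CPM (mapped counts scaled by library size) in the control-siRNA libraries and 15.1 to 17.3 CPM in the TAZ-siRNA libraries, so that 8.64% of the control level was left. The mesenchymal and luminal markers VIM, CD44 and KRT18 were abundant in all 6 libraries (VIM at 3611 to 3922 TPM, a level scaled for transcript length), ESR1 and PGR had at most 6 counts and CDH1 at most 36. Of the markers of other cells, PTPRC (blood) was at 0 counts throughout, COL1A2 (fibroblasts) had at most 2 counts, and PECAM1 (endothelium) lay at 1.37 to 2.67 TPM. Libraries held 48307548 to 71749634 estimated counts. TAZ-siRNA replicate 3 (rep5 in its sample title) stood apart from its group, and so did control-siRNA replicate 3. Chi-square per degree of freedom over genes was 27.6 and 38.2 for TAZ-siRNA replicate 3, beside 10.8 between TAZ-siRNA replicates 1 and 2. For control-siRNA replicate 3 it was 20.3 and 18.5, beside 6.38 between control-siRNA replicates 1 and 2. Main values that depend on TAZ-siRNA replicate 3 are given with and without it. With all libraries 3749 of 16966 genes tested had an edgeR adjusted p under 0.05 (called below), and 5928 did without TAZ-siRNA replicate 3. In bulk RNA, fewer cells that express a gene and less RNA per cell cannot be told apart.

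EGR1, a zinc finger transcription factor induced by serum and growth factors, was present at 388, 372 and 375 CPM with control-siRNA and at 648, 675 and 620 CPM with TAZ-siRNA. The 3 treated libraries lay close together and far above the controls. The means were 378 ± 8.48 CPM and 648 ± 27.3 CPM (SD, n = 3), a 1.71-fold difference. IER3, an immediate early gene known to modulate ERK signalling and cell survival, was at 392, 387 and 377 CPM and then at 577, 611 and 584 CPM. Again no treated library came near a control library. The means were 385 ± 7.71 and 591 ± 17.9 CPM, a 1.53-fold difference. No interval is given for EGR1 or IER3, since it would take no account of their choice by this rise. Ordered by log2 fold change, EGR1 stood 461st and IER3 817th among the 16966 genes, and 37th and 113th among the 9939 genes that averaged 10 CPM or more. Each thus differed by under 2-fold, from a high level and with little spread between libraries.

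**Figure D1:**
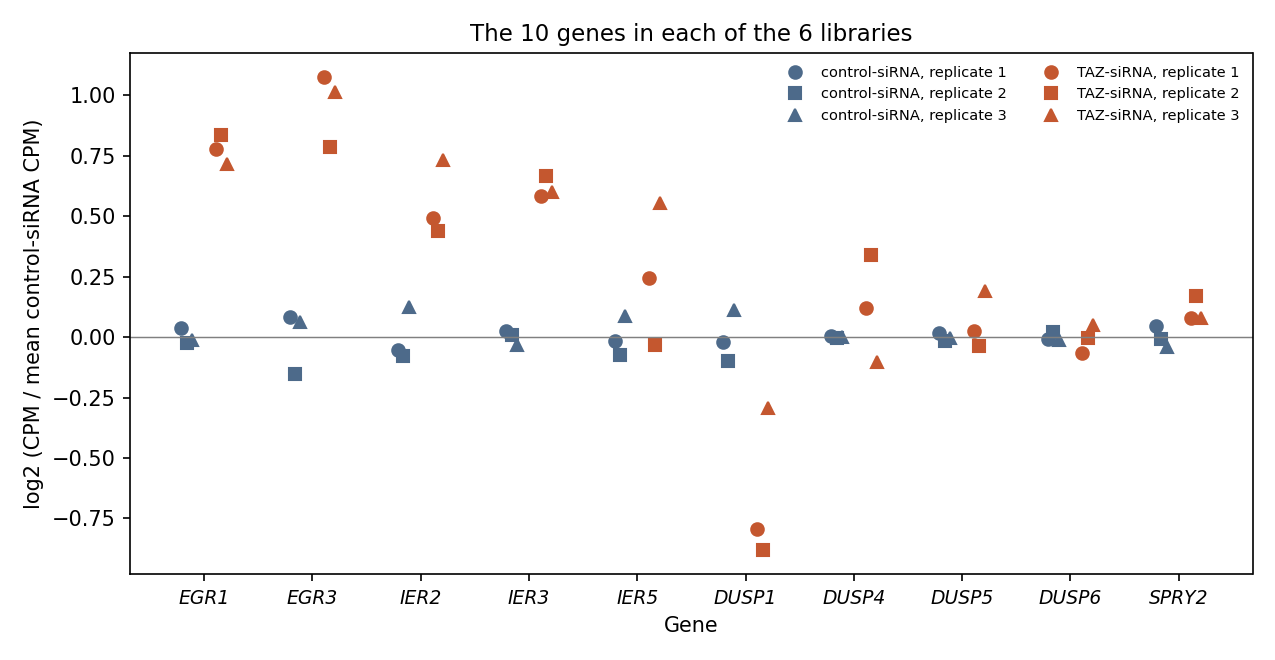
Each point is the CPM of 1 gene (horizontal axis) in 1 library, as the log2 ratio to that gene's mean over the 3 control-siRNA libraries (vertical axis, grey line at 0). Blue points are control-siRNA, orange points TAZ-siRNA, and the shape gives the replicate; EGR1, EGR3, IER2 and IER3 lie above their controls in every treated library and DUSP1 lies below them.

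Of the 8 genes that were not chosen for their rise, 2 rose (EGR3 and IER2), 1 fell (DUSP1) and 5 were not called. Over all genes tested, 22.1% were called, 11.9% higher and 10.2% lower, so counts of 2 and 1 in 8 are close to that background. The median log2 fold change of the 8 genes was 0.120, beside -0.0054 over all genes. The groups did not overlap for 4 of the 8, with EGR3, IER2 and SPRY2 above and DUSP1 below their controls, beside 39.6% of all genes, 20.0% above and 19.6% below.

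EGR3, a relative of EGR1 that binds the same DNA element, was measured at a low level, with 9.82, 8.34 and 9.68 CPM in the control-siRNA libraries and 19.6, 16.0 and 18.7 CPM in the TAZ-siRNA libraries. Every treated library was well above every control. Its counts, 470 to 655 in controls and 790 to 1428 after TAZ-siRNA, were far over the floor of 3 counts. EGR3 rose 1.96-fold (95% interval 1.69 to 2.27, log2 fold change 0.97, SE 0.097, edgeR adjusted p = 1.8e-04). The 3rd EGR gene with enough counts, EGR2, was at 10.5, 10.6 and 10.9 CPM and then at 24.2, 19.8 and 23.2 CPM. EGR2 rose 2.11-fold (log2 fold change 1.07, SE 0.084, edgeR adjusted p = 6.4e-05), and it also stands among the genes that the study selected from these libraries, so its direction is not independent evidence. EGR4 had too few counts to be tested. NAB1 and NAB2, corepressors that bind EGR proteins, also rose. NAB1 went from 70.3 ± 6.55 to 94.6 ± 5.28 CPM (1.35-fold, edgeR adjusted p = 0.00216) and NAB2 from 73.3 ± 5.46 to 100.2 ± 10.9 CPM (1.37-fold, edgeR adjusted p = 0.00353).

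The other IER genes did not move alike. IER2, a nuclear immediate early protein, was at 98.4, 96.6 and 111 CPM in the control-siRNA libraries and at 144, 139 and 170 CPM in the TAZ-siRNA libraries. The groups were apart, with replicate 3 the highest in each. IER2 rose 1.48-fold (interval 1.30 to 1.67, log2 fold change 0.56, SE 0.081, edgeR adjusted p = 0.00124). IER5, which is known to regulate heat shock factor activity, was at 121, 117 and 131 CPM and then at 146, 120 and 181 CPM. The treated libraries spanned a wide range and 1 of them lay within the controls. Its 1.21-fold difference (interval 0.964 to 1.52, log2 fold change 0.28) was not called (edgeR adjusted p = 0.206). It was called in 3 of 16 alternative analyses, among them that without TAZ-siRNA replicate 2 (log2 fold change 0.41, edgeR adjusted p = 0.0134). Without TAZ-siRNA replicate 3 the log2 fold change of IER5 was only 0.12 (edgeR adjusted p = 0.353). IER5L, the gene most related to IER5, rose from 19.8 ± 0.227 to 33.2 ± 2.21 CPM (1.67-fold, edgeR adjusted p = 9.8e-05).

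DUSP1, the nuclear phosphatase MKP-1 that acts on p38, JNK and ERK, moved the other way. It was at 305, 289 and 335 CPM with control-siRNA and at 179, 168 and 253 CPM with TAZ-siRNA. All treated libraries lay below all controls, and treated replicate 3 was nearest to them. DUSP1 fell to 0.645 of the control level (interval 0.499 to 0.835, log2 fold change -0.63, SE 0.156, edgeR adjusted p = 0.0299). This call rested on few libraries. It was lost without control-siRNA replicate 1 (edgeR adjusted p = 0.0629), without control-siRNA replicate 3 (0.0878) or without TAZ-siRNA replicate 1 (0.0838). Without TAZ-siRNA replicate 3 the log2 fold change was -0.83 (edgeR adjusted p = 3.9e-07). The sign was the same under all 16 alternatives, at log2 fold changes of -0.83 to -0.52.

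The other feedback genes of the set stayed near their control levels. DUSP6, the cytoplasmic phosphatase MKP-3 that is specific for ERK and often read as a gauge of ERK output, was at 432, 440 and 430 CPM with control-siRNA and 415, 433 and 450 CPM with TAZ-siRNA. The values of the 2 groups were interleaved. The 95% interval of its fold change was 0.916 to 1.08 (edgeR adjusted p = 0.958). DUSP5, a nuclear phosphatase specific for ERK, was at 293 to 299 and 288 to 338 CPM (1.04-fold, interval 0.947 to 1.15, edgeR adjusted p = 0.522). DUSP4, the nuclear phosphatase MKP-2, was at 277, 275 and 276 CPM and then at 300, 349 and 257 CPM. Its controls were almost identical, while its treated libraries lay on both sides of them (1.09-fold, interval 0.949 to 1.26, edgeR adjusted p = 0.349). Of 16 alternatives DUSP4 was called in 1, without TAZ-siRNA replicate 3 (log2 fold change 0.24, edgeR adjusted p = 0.00524). SPRY2, a Sprouty protein that blocks receptor signals upstream of RAF, was at 44.1, 42.4 and 41.4 CPM and then at 45.0, 47.9 and 45.0 CPM. The treated libraries were all above the controls, but the difference was small (1.08-fold, interval 0.992 to 1.17) and was not called (edgeR adjusted p = 0.18).

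**Figure D2:**
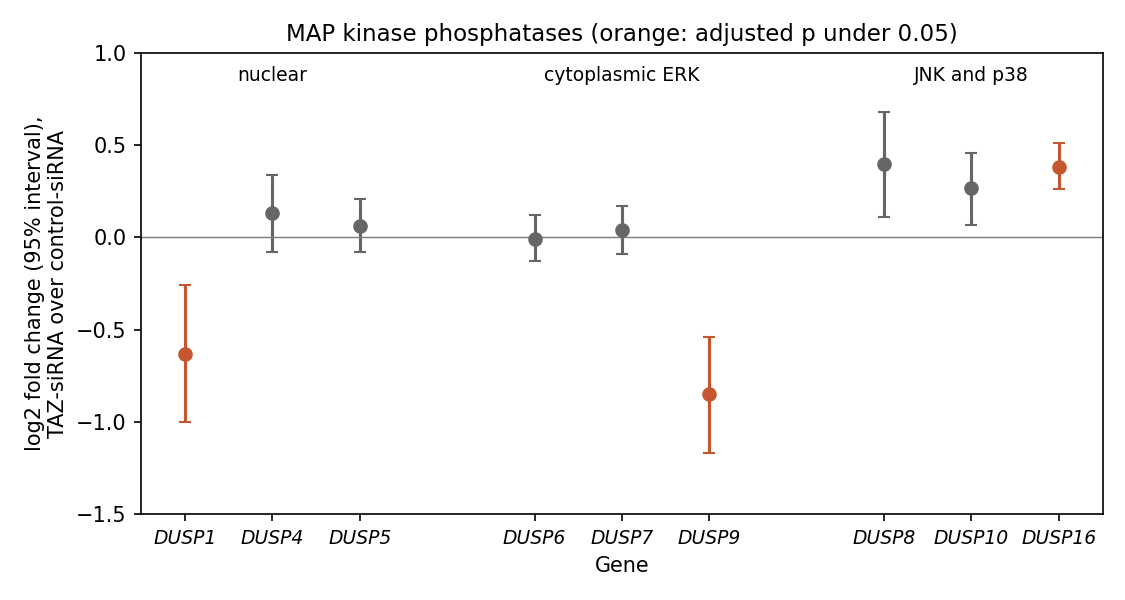
Points are the log2 fold change, TAZ-siRNA over control-siRNA (vertical axis), of each dual-specificity MAP kinase phosphatase with enough counts, grouped by class along the horizontal axis, and bars are 95% intervals over 3 libraries a group. Orange marks an edgeR adjusted p under 0.05: DUSP1 and DUSP9 lie below 0 and DUSP16 above it, while DUSP4, DUSP5, DUSP6 and DUSP7 lie between -0.01 and 0.13.

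Set beside the rest of their family, DUSP1, DUSP4, DUSP5 and DUSP6 are 4 of the 9 dual-specificity MAP kinase phosphatases tested. Of the ERK-directed cytoplasmic class, DUSP7 was at 33.5 ± 1.80 and 34.5 ± 0.746 CPM and was not called (edgeR adjusted p = 0.645). DUSP9, of the same class, fell from 3.77 ± 0.426 to 2.08 ± 0.175 CPM (0.553 of control, edgeR adjusted p = 0.00226). Of the class directed at JNK and p38, DUSP16 rose from 33.7 ± 0.780 to 43.9 ± 1.97 CPM (1.30-fold, edgeR adjusted p = 0.00124). DUSP8 (1.32-fold, edgeR adjusted p = 0.0503) and DUSP10 (1.20-fold, edgeR adjusted p = 0.0545) lay above their controls in all 3 libraries but were not called. Both were near the threshold and were called without TAZ-siRNA replicate 3, and DUSP10 also without control-siRNA replicate 3. DUSP2 had 2 counts in 1 library and 0 in the rest, and was not tested.

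Levels of different genes were compared per transcript length, as TPM. IER3 was the most abundant of the 10 in every library, at 644 to 697 TPM in controls and 1012 to 1139 TPM after TAZ-siRNA. DUSP1 came next in the controls (315 to 352 TPM). EGR1 (253 to 272 TPM), DUSP6 (251 to 267 TPM) and DUSP5 (252 to 266 TPM) followed it with overlapping values. With TAZ-siRNA, EGR1 stood in the next place after IER3 at 424 to 496 TPM. DUSP1, at 192 to 269 TPM, was then 4th or 5th, in reach of DUSP6 (266 to 275 TPM) and DUSP5 (268 to 292 TPM). DUSP4 and IER2 were not separable in the controls (104 to 108 and 101 to 112 TPM) and were at 98.0 to 143 and 152 to 172 TPM with TAZ-siRNA. IER5, SPRY2 and EGR3 closed the order in every library, and EGR3 was under SPRY2 by several fold, at 4.10 to 4.82 and 8.28 to 10.2 TPM.

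**Figure D3:**
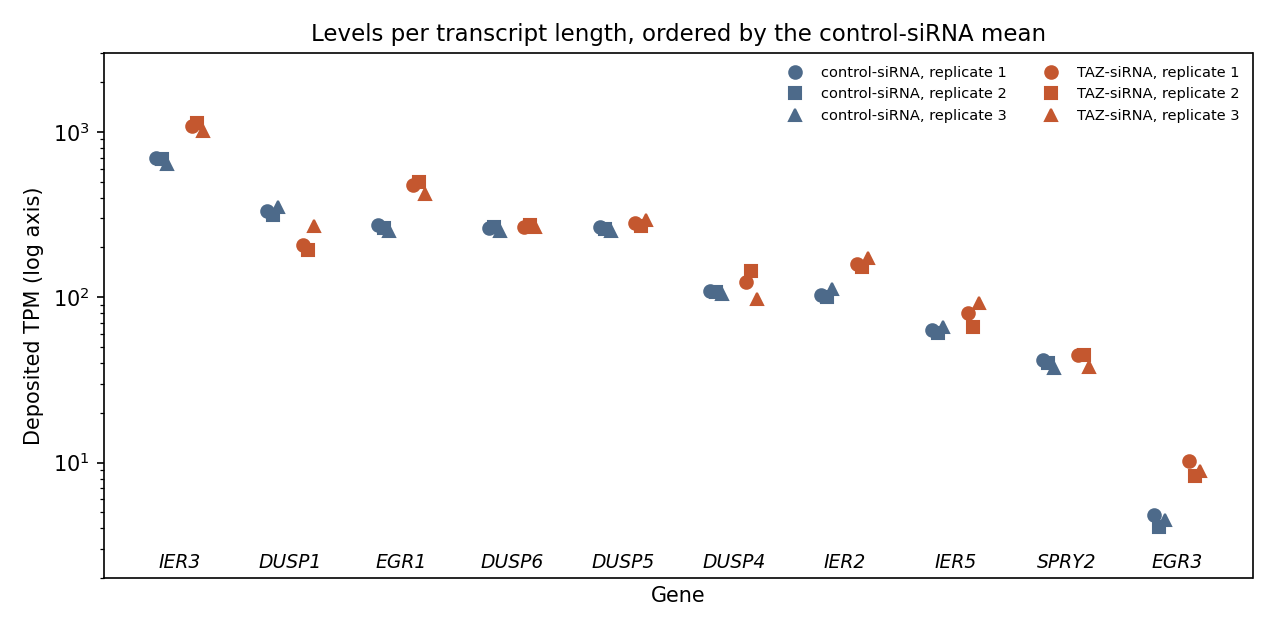
Deposited TPM (vertical log axis) of each of the 10 genes in each of the 6 libraries, with genes along the horizontal axis in order of the control-siRNA mean, blue for control-siRNA and orange for TAZ-siRNA. IER3 is on top at 644 to 1139 TPM, EGR1 passes DUSP1, DUSP5 and DUSP6 in the TAZ-siRNA libraries, and EGR3 is lowest at 4.10 to 10.2 TPM.

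On GRCh38, EGR1 lies at chr5:138465479-138469303, IER3 at chr6:30743199-30744547 and DUSP1 at chr5:172768096-172771195. EGR1, IER2, IER3, IER5, DUSP1 and DUSP5 were each quantified as 1 transcript. For DUSP6 one transcript, NM_001946, took over 99% of the counts in each library. The minor DUSP4 transcript NM_057158 held 4.16, 3.83 and 0.149% of DUSP4 counts with control-siRNA and 4.82, 0 and 0% with TAZ-siRNA. SPRY2 alone showed a large shift in its main transcript. NM_005842 held 87.8, 89.4 and 86.7% of SPRY2 counts with control-siRNA and 86.6, 47.6 and 33.3% with TAZ-siRNA. NM_001318537, which ends at the same base and begins further in, held 8.51, 6.98 and 7.02% and then 7.41, 47.5 and 61.5%. Treated replicate 1 thus looked like the controls and the other two did not, and how far the estimate can part such overlapping transcripts was not tested. IER3 overlaps the antisense gene IER3-AS1, which had only 4 to 8 counts, and EGR3 overlaps LOC107986924, which had at most 1.

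Of the 10 genes, 3 shared one pattern among replicates, which was noticed after the values were seen. IER2, IER5 and DUSP1 were highest in replicate 3, next in replicate 1 and lowest in replicate 2, in the control-siRNA and in the TAZ-siRNA libraries. Of all genes tested, 4.62% had this order in both groups, but this 1 order was picked from the values. Any order that was alike in both groups was found for 4 of the 10, with EGR3 (1, 3, 2) added, beside 23.8% of all genes tested. Replicate 3 was highest in both groups for 3 of the 10, beside 20.4%. The log2 deviations from the group mean were -0.02, -0.10 and 0.12 for DUSP1 in the controls and -0.14, -0.23 and 0.36 in the treated libraries. For IER5 they were -0.02, -0.07 and 0.09, then -0.01, -0.29 and 0.30. EGR1 and IER3 deviated by at most 0.06 in any library, and so did DUSP6 and SPRY2. DUSP4 went up in treated replicate 2 (0.22) and down in treated replicate 3 (-0.22). The order of IER2, IER5 and DUSP1 was found in both groups for 5 of 20 other immediate early genes, namely FOSB, ATF3, NR4A1, ZFP36 and BTG2. In the other pathway lists it was found for 1 of 12 feedback inhibitors, 0 of 10 ERK output genes, 3 of 19 cascade genes, 1 of 8 genes of the SRF list and 1 of 8 ligands. The labels do not say whether replicate numbers mark pairs, and what the pattern comes from was not tested.

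**Figure D4:**
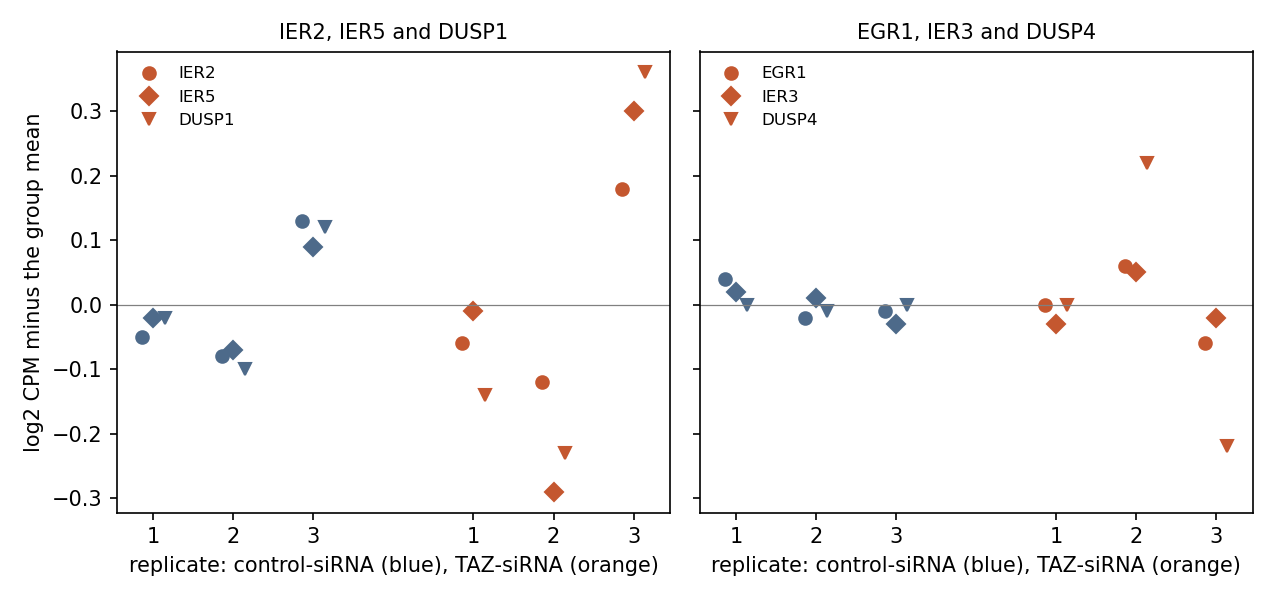
Deviation of log2 CPM from the group mean (vertical axis) in each replicate (horizontal axis), blue for control-siRNA and orange for TAZ-siRNA, with 1 marker shape for each gene. IER2, IER5 and DUSP1 (left) are highest in replicate 3 of both groups, up to 0.36 for DUSP1, while EGR1 and IER3 (right) stay within 0.06 of the mean and DUSP4 spreads from -0.22 to 0.22.

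Since these genes vary together within a group, ratios of their counts within a library were also formed, a choice made after the values were seen. The ratio of DUSP1 to IER2 was 3.10, 2.99 and 3.01 with control-siRNA and 1.24, 1.21 and 1.49 with TAZ-siRNA (3.03 ± 0.0582 and 1.31 ± 0.153, SD, n = 3). The ratio of DUSP1 to IER5 was 2.51, 2.47 and 2.57 and then 1.22, 1.40 and 1.40. The ratio of IER5 to IER2 was 1.23, 1.21 and 1.17 and then 1.01, 0.866 and 1.06. For all 3 ratios the groups did not overlap, and the spread was wider among the treated libraries (SD 0.153, 0.100 and 0.103) than among the controls (SD 0.0582, 0.0479 and 0.0307). These ratios show unequal change, not which of the genes changed.

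Over the 6 libraries and among genes averaging 10 CPM or more, the log2 CPM of TMEM135, TMEM132A, PPP1R10, KLHL4 and IP6K1 followed that of EGR1 most closely (Pearson's r of 0.999 to 0.998). For IER3 these genes were KIAA0895, TMEM132A, EGR1, LONRF1 and SMARCD1 (r of 0.998 to 0.997). The 6 points fall into 2 groups, so that r mostly reports the difference between them, and 63 genes passed 0.99 with EGR1 and 50 with IER3. These values are a description.

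The same pathway was then read through 81 other genes, listed by function, of which 77 could be tested. Of these, 27 rose (35.1%) and 3 fell (3.90%), beside 11.9% and 10.2% of all genes tested. Without TAZ-siRNA replicate 3 the counts were 39 and 7, but that fit called more genes over the whole table. It called 3102 higher and 2826 lower of 17585 genes tested, beside 2012 and 1737 of 16966 with all libraries. List counts given below without that library stand against this larger background. Leaving out any other library gave 24 to 30 pathway genes higher and 1 to 2 lower. Of the 30 called genes, 25 stayed called whichever library was left out. The exceptions were KLF6, EPHA2, SHC1, KSR1 and SRF. The lists were made with earlier results of these data known, so the shares describe the lists and are no test of them.

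Of 20 other immediate early genes tested, 8 rose and 1 fell, and their median log2 fold change was 0.38. Among AP-1 genes, JUNB rose from 159 ± 10.7 to 237 ± 16.6 CPM (1.49-fold, edgeR adjusted p = 3.8e-04) and JUND from 66.3 ± 7.89 to 112 ± 4.69 CPM (1.69-fold, edgeR adjusted p = 2.0e-04). FOS was at 103, 107 and 133 CPM and then at 156, 114 and 206 CPM. Its treated libraries spread so widely that the 1.39-fold difference was not called (edgeR adjusted p = 0.25), and FOSB (1.44-fold, edgeR adjusted p = 0.169) and JUN (1.19-fold, edgeR adjusted p = 0.0587) were not called either. The rest that rose were EGR2, IER5L, the Krüppel-like factors KLF4 (1.31-fold) and KLF10 (1.44-fold), the nuclear receptor NR4A2 (1.33-fold) and the survival gene MCL1 (1.35-fold). KLF6 fell to 0.864 of control (edgeR adjusted p = 0.0292), a call lost without control-siRNA replicate 1 or 2 or without TAZ-siRNA replicate 1. Without TAZ-siRNA replicate 2, in which IER5 was also lowest, FOS, FOSB, JUN, NR4A1 and ZFP36 were called (edgeR adjusted p = 0.00121 for FOSB and 0.0493 for NR4A1). Called and uncalled genes thus stood side by side in this class, as they did among the 10.

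Among 12 other feedback inhibitors tested, 5 rose and 1, DUSP9, fell (median log2 fold change 0.32). SPRY4, a Sprouty protein like SPRY2, rose from 259 ± 12.3 to 371 ± 40.8 CPM (1.43-fold, edgeR adjusted p = 0.00147). SPRY1 was at 11.1 ± 0.654 and 10.7 ± 1.37 CPM and was not called (edgeR adjusted p = 0.737). Of the Sprouty-related SPRED genes, SPRED3 rose 1.45-fold (edgeR adjusted p = 5.5e-04), while SPRED1 (1.17-fold, edgeR adjusted p = 0.061) and SPRED2 (1.15-fold, edgeR adjusted p = 0.0841) were not called, though both were without TAZ-siRNA replicate 3. The number of this list called higher was 8 with DESeq2 and 9 without TAZ-siRNA replicate 3. ERRFI1, an inhibitor of the EGF receptor and the most highly counted gene of this list, rose from 1333 ± 43.4 to 1812 ± 41.0 CPM (1.36-fold, edgeR adjusted p = 6.9e-04). IL17RD, an inhibitor of FGF and ERK signals, rose 1.45-fold (edgeR adjusted p = 0.00278). SPRY3 and DUSP2 had too few counts.

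Of 10 further genes often used to read ERK output, 5 rose and none fell at the edgeR adjusted p of 0.05 (median log2 fold change 0.28). They were the ETS factor ETV1 (84.0 ± 2.26 to 126 ± 11.7 CPM, 1.50-fold, edgeR adjusted p = 3.3e-04), EPHA4 (1.46-fold), PHLDA1 (1.31-fold), LIF (1.23-fold) and EPHA2 (1.19-fold). The call of EPHA2 held with all libraries and without TAZ-siRNA replicate 3, but not without any other single library (highest edgeR adjusted p = 0.104). ETV4 (1.02-fold, interval of the log2 fold change -0.08 to 0.14) and ETV5 (1.06-fold, -0.03 to 0.21), close relatives of ETV1, were not called. CCND1, the cyclin of G1, was at 196 ± 6.24 and 186 ± 26.9 CPM (edgeR adjusted p = 0.598). GDF15 showed a 1.96-fold difference, but with treated libraries from 379 to 715 CPM it was not called (edgeR adjusted p = 0.0616). It was called without TAZ-siRNA replicate 2 or 3, and 6 genes of this list were called higher with DESeq2.

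The cascade itself differed little. Of 19 genes from SHC1 and RAS to ERK, 3 rose and 1 fell, with a median log2 fold change of 0.07. Without TAZ-siRNA replicate 3, 7 of the 19 were called higher and 2 lower, beside 3102 and 2826 of all 17585 genes tested in that fit. SOS1, an exchange factor that loads RAS, rose 1.31-fold (edgeR adjusted p = 0.00139), BRAF 1.20-fold (edgeR adjusted p = 0.00811) and the scaffold KSR1 1.26-fold (edgeR adjusted p = 0.0181). The adaptor SHC1 fell to 0.842 of control (edgeR adjusted p = 0.0475). When 1 library was left out, SHC1 was called only without TAZ-siRNA replicate 3, and KSR1 only without that library or without control-siRNA replicate 3 (highest edgeR adjusted p = 0.172 and 0.0838). MAP2K1, which encodes MEK1 (1.00-fold), and MAPK3, which encodes ERK1 (1.04-fold), were not called. mRNA levels do not show whether these kinases were active.

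Of the SRF and ternary complex factor genes, SRF rose 1.18-fold (edgeR adjusted p = 0.0176), and ELK1 (0.995 of control), ELK3 (0.982) and ELK4 (1.03-fold) were not called. SRF was no longer called without control-siRNA replicate 2 or 3 or without TAZ-siRNA replicate 1 or 2 (highest edgeR adjusted p = 0.0913). With NAB1 and NAB2 this made 3 of 8 that rose and none that fell. Without TAZ-siRNA replicate 3, 5 of the 8 were called higher, with MRTFA (edgeR adjusted p = 0.00448) and MRTFB (1.5e-04) added. Of 8 ligands of the EGF family, 3 rose and none fell. TGFA went from 98.4 ± 2.46 to 134 ± 6.55 CPM (1.36-fold, edgeR adjusted p = 3.4e-04), EREG from 199 ± 8.47 to 264 ± 33.5 CPM (1.33-fold, edgeR adjusted p = 0.00686) and NRG2 from 2.50 ± 0.193 to 4.42 ± 0.823 CPM (1.76-fold, edgeR adjusted p = 0.00425). AREG was at 50.3, 55.3 and 59.0 CPM and then at 46.1, 36.6 and 75.6 CPM. Like DUSP1 and IER5 it was highest in treated replicate 3 and lowest in treated replicate 2, and it was not called (edgeR adjusted p = 0.919). HBEGF was at 217 ± 5.07 and 196 ± 33.6 CPM (edgeR adjusted p = 0.342). Without TAZ-siRNA replicate 3, 3 of the 8 ligands were called lower, AREG (edgeR adjusted p = 0.0319), HBEGF (0.00183) and NRG1 (0.0417).

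**Figure D5:**
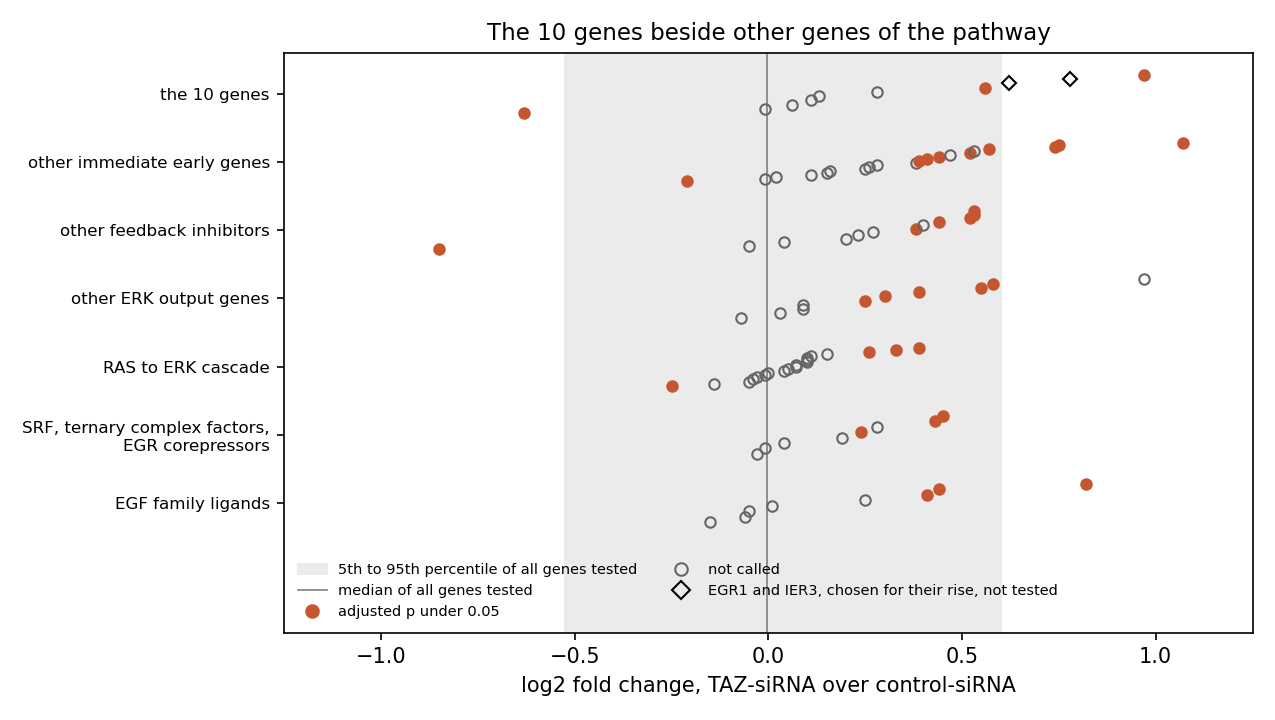
Each point is the log2 fold change, TAZ-siRNA over control-siRNA (horizontal axis), of 1 gene in the list named on the vertical axis, with vertical offsets inside a list only to part the points. Filled orange points have an edgeR adjusted p under 0.05, open diamonds are EGR1 and IER3, and the grey band holds the 5th to 95th percentile of all genes tested around their median of -0.0054; called genes lie mostly to the right, apart from DUSP1, KLF6, DUSP9 and SHC1.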

How the data were processed

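RNA was measured in 6 libraries, 3 control-siRNA and 3 TAZ-siRNA, grouped by their labels. Replicates are numbered 1 to 3 as in the sample descriptions and file columns, and the sample titles call the same libraries rep3, rep4 and rep5 in that order. The authors trimmed reads, aligned them by HISAT2 (GRCh38), and StringTie quantified RefSeq genes (the submitters' processing notes also name Bowtie 0.12.2 and mm8, with no role given). The deposited estimated counts were whole numbers and were used as they stood. The deposited FPKM and TPM, scaled by the authors for length and library, served for an alternative test and for levels. Whether counting used strand is not given in the sources used here.

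Counts were compared with edgeR 4.0.16 (R 4.3.3): TMM factors (0.978 to 1.02), filterByExpr (minimum count 10), robust quasi-likelihood tests, and Benjamini-Hochberg adjustment over 16966 genes at 0.05. CPM used TMM-scaled library sizes. SE and 95% intervals came from the F statistic. The biological coefficient of variation was 8.04%. Chi-square per degree of freedom was 6.38 to 38.2 between libraries of a group, so none was counted as a repeat. P-values measure the spread between 3 cell preparations, and the floor of 3 counts covers counting error only. The members and lists were chosen with earlier results of these data known. The genes named were the 10 members, called and abundant genes of the lists, WWTR1, the 5 genes most like EGR1 and IER3, and genes overlapping a member. Alternatives were DESeq2 1.42.0, upper-quartile factors, other filters, a replicate block, a GC content and length correction, limma 3.58.1 with FPKM pseudocounts of 1 and 0.1 before log2, a threshold of 0.01, and leaving out each library. The script was tested on simulated data. Some planned results are left out of the text.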

Additional observations from a re-analysis of the deposited data

How the results depend on the processing

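Under 16 alternatives EGR3 and IER2 kept their call and direction in every one (edgeR, DESeq2 or limma adjusted p at most 0.00242 and 0.012), and the log2 fold changes of EGR1 (0.73 to 0.81) and IER3 (0.60 to 0.70) kept their sign. DUSP1 kept its sign, but was not called with no filter on low counts (edgeR adjusted p = 0.0746) or at a threshold of 0.01, so that the count of the 8 genes called lower was 0 there, and 0 to 1 with 1 library left out. DUSP5 and DUSP6 lay so near 0 that their sign turned: DUSP5 was at -0.001 without TAZ-siRNA replicate 3, and DUSP6 at 0.003 in both limma analyses, 0.005 without control-siRNA replicate 2 and 0.025 when treated replicate 1 was left out. With 1 library left out in turn, the log2 fold change ran from -0.001 to 0.115 for DUSP5 and from -0.031 to 0.025 for DUSP6. The cause was not tested. Over all genes, leaving out 1 library gave 1937 to 5928 calls, 1102 to 3102 higher and 835 to 2826 lower, and the threshold of 0.01 gave 1720, 977 and 743. Of the listed pathway genes, 1 to 7 were called lower with 1 library left out, 1 at 0.01, and 5 with the replicate block, GC content and length, where 2850 of all genes were called lower.

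Deviations of same-numbered libraries correlated at -0.065, 0.047 and 0.154 across genes, and those of differently numbered libraries at -0.268 to 0.263. The order of replicates was the same in both groups for 23.8% of genes tested, and replicate 3 was highest in both for 20.4%. The labels do not say whether the replicate number marks pairs, and with 3 libraries a group these values cannot decide it. With the number as a replicate block, 5122 genes were called, IER5 passed the threshold (edgeR adjusted p = 0.0496) and DUSP1 stayed called (log2 fold change -0.65, edgeR adjusted p = 7.7e-04). DESeq2 also called IER5 (DESeq2 adjusted p = 0.0488). With 3 libraries a group an exact permutation test of a single gene cannot go below 0.1.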
